A study of Mus musculus with 2 samples.

Results

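The regions described here are narrow stretches of the mouse genome with a strong JARID2 signal and no strong MTF2 signal in embryonic stem (ES) cells. They were chosen by the measured JARID2 level, the measured MTF2 level and the width, so these 3 values are given as a description and carry no test. Chromosomes 1 to 19 were divided into bins of 1 kb, and the fold of a bin is its count over the expected count of its chromosome. JARID2 bins of 5-fold or more, merged across gaps of up to 1 kb, made 25788 blocks. A block was taken if it was 1 to 2 kb wide, if its highest bin reached 20-fold or more in JARID2, and if no bin reached 5-fold in MTF2. This gave 1780 narrow strong blocks, or 6.90% of all blocks. Of the 1906 narrow blocks with JARID2 at 20-fold or more, 126 (6.61%) were left out because a bin reached 5-fold in MTF2, against 3.96% of all JARID2 blocks. Repeat reads were more frequent among these 126 than among the 1780, as given below.

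JARID2 is a Jumonji-family protein without the demethylase activity of its relatives, and MTF2 is a Polycomb-like protein with a Tudor domain. Both bind PRC2, the complex that methylates lysine 27 of histone H3 and helps to keep developmental genes silent in ES cells. JARID2 and the Polycomb-like proteins are known from different forms of PRC2, so places that carry a signal of JARID2 with little MTF2 bear on how far these forms overlap.

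Each factor was profiled in 1 ChIP-seq library, in which DNA recovered with an antibody is sequenced. Both libraries came from ES cells of a 129SvJae x C57BL/6 background at passages 10 to 15, grown off feeder cells for the last 2 to 3 passages, with no treatment named. No replicate and no input library was used here, so differences are between these 2 libraries and all intervals (95%) cover counting error only. On chromosomes 1 to 19, 8563684 MTF2 reads of 52 bp and 12512741 JARID2 reads of 36 bp were kept after repeat reads had been removed. The median chromosome had an expected count of 3.39 MTF2 reads and 4.25 JARID2 reads per bin. Of 2382450 bins with a read in either library, 1.88% reached 5-fold in JARID2 and 0.178% in MTF2. Positions are those of the deposited files, counted from 1, and no genome or annotation of the same build was used, so genes, exons and base composition at the blocks were not analysed here. The cell type label cannot be checked against expression markers in such data.

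JARID2 reads were dense in the narrow strong blocks, and their counts per block were large enough to be precise. The highest bin had a median JARID2 fold of 27.7 (quartiles 22.6 and 36.5, highest 99.5). A block held a median of 153 JARID2 reads, from 71 to 764. Together the blocks held 307870 JARID2 reads, or 2.46% of the library, and 14132 MTF2 reads, or 0.165%. There were 543 blocks of 1 kb (30.5%) and 1237 of 2 kb.

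The strongest block of each chromosome, among blocks where repeat reads raised neither library's count 3 times or more, shows the upper end of the class in JARID2. These 19 blocks had 290 to 764 JARID2 reads, a highest JARID2 bin between 60.1 and 99.5-fold, and 0 to 21 MTF2 reads. The MTF2 interval lay above the expected level in 11 of them and included it in the other 8.

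The highest JARID2 fold of the class was on chromosome 10 from 120713001 to 120715000. It had 530 JARID2 reads, 66.9-fold (61.3 to 72.8) over the block, and 10 MTF2 reads, 1.45-fold (0.697 to 2.67). Both values follow from the choice of the block, and the MTF2 interval is wide because the count is small. On chromosome 9 from 86677001 to 86679000 there were 591 JARID2 reads, 68.9-fold (63.4 to 74.6), and 14 MTF2 reads, 2.06-fold (1.13 to 3.46). On chromosome 16 from 17728001 to 17730000 there were 387 JARID2 reads, 53.4-fold (48.2 to 59.0), and 14 MTF2 reads, 2.07-fold (1.13 to 3.47). In these last blocks the MTF2 interval lay just above the expected level.

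The block with the most JARID2 reads lay on chromosome 8 from 114776001 to 114778000. It held 764 JARID2 reads, 65.5-fold (60.9 to 70.3), and 17 MTF2 reads, 1.84-fold (1.07 to 2.95). Chromosome 8 had the highest expected counts, 5.83 JARID2 and 4.62 MTF2 reads per bin, which raises read counts there but not folds. On chromosome 11 from 64251001 to 64253000, 638 JARID2 reads (60.9-fold, 56.3 to 65.8) stood beside only 2 MTF2 reads (0.315-fold, 0.0381 to 1.14). That MTF2 interval still included the expected level, because 2 kb of background holds few MTF2 reads. The highest MTF2 count among the 19 was 21, on chromosome 4 from 135562001 to 135564000, at 3.06-fold (1.90 to 4.68), where JARID2 had 405 reads and 46.2-fold (41.8 to 50.9).

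Both limits of the class run through a continuum. The blocks just inside the JARID2 limit, all on chromosome 2 and starting at 19427001, 25194001 and 35801001, had a highest bin just above 20-fold, with 85 reads each. Those just outside lay on chromosome 3 from 51446001 and from 130935001 (70 reads in the highest bin) and on chromosome 17 from 45950001 (91 reads), all at 19.96-fold. Just inside the MTF2 limit were blocks on chromosome 4 from 45993001 (4.96-fold) and on chromosome 10 from 57320001 and 70554001 (4.94-fold). Just outside it were blocks on chromosome 9 from 115199001 (5.01-fold) and on chromosome 11 from 16157001 and 69156001 (5.04-fold). Neighbours on either side of a limit differed by less than their counting intervals.

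The name "without MTF2" holds for the limit, and not for the MTF2 level as a whole. Summed over the 1780 blocks, MTF2 was 1.35-fold (1.33 to 1.37) over the expected count, with 14132 reads against 10452.5 expected. In the flanks 2 to 10 kb away it was 0.960-fold (0.954 to 0.967), so the blocks stood 1.41 times (1.38 to 1.43) above their surroundings. Of the blocks, 997 (56.0%) had at least the expected number of MTF2 reads and 783 (44.0%) had fewer, while 56.1% of all covered 1 kb bins had fewer. Most blocks are 2 kb wide, so these shares are not at like width. Most single blocks do not settle the matter: the MTF2 interval included the expected level in 1303 blocks. It lay above that level in 425 and below it in 52. These counts cannot be weighed against each other, because at this depth few blocks can have an interval below the expected level. A count of 0 in the 1 kb block on chromosome 16 from 11337001 still allowed up to 1.09-fold. Intervals were not computed for all covered bins, so no background share stands beside the numbers of blocks. Because blocks at 5-fold or more had been removed, the sum is below that of all narrow strong JARID2 blocks. Of the removed blocks, 73 had a distance from forward to reverse JARID2 reads below 72 bp or at least 1.5 deposited JARID2 reads per kept read. Their summed MTF2 was 17.6-fold (17.1 to 18.1), against 4.49-fold (4.27 to 4.71) in the other 53.

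**Figure D1:**
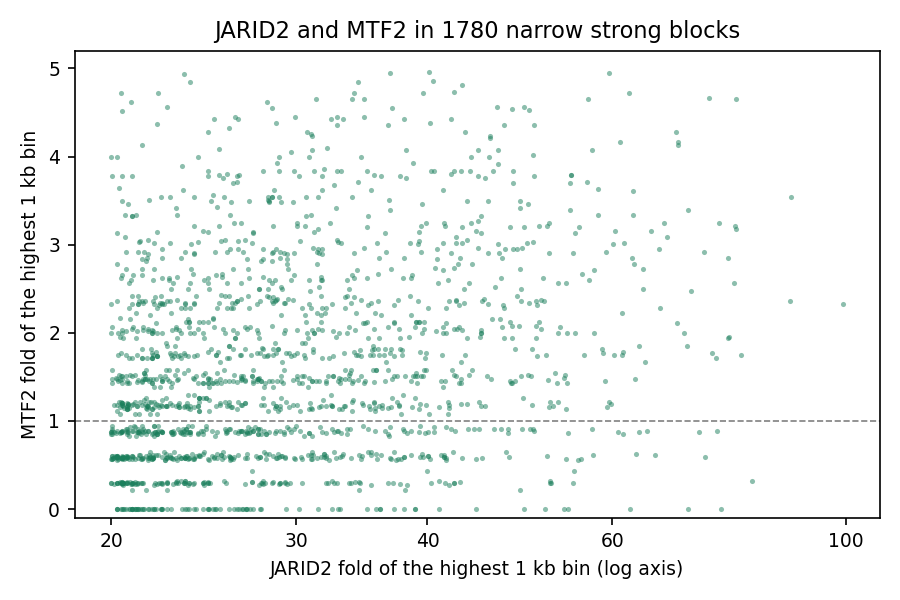
JARID2 fold (log axis) against MTF2 fold of the highest 1 kb bin, 1 point for each of the 1780 narrow strong blocks, with a dashed line at the expected MTF2 level. Points fill the range from no MTF2 read to the limit of 5-fold, and lines of points at low MTF2 fold mark counts of 0, 1 and 2 reads.

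MTF2 varied widely between blocks of like JARID2 level. No MTF2 read was found in 86 blocks (4.83%, 3.88 to 5.93), above 0 to 0.5-fold in 238, above 0.5 to 1-fold in 459, above 1 to 2-fold in 596, above 2 to 3-fold in 294 and above 3-fold in 107. Of all covered 1 kb bins, 5.32% had none, but most blocks are 2 kb wide. At 1 kb, 13.1% of the blocks had no MTF2 read, and at 2 kb 1.21% had none. Counts with only Poisson spread around the chromosome's level would leave 1.06% of blocks of these widths without a read. The median JARID2 fold of the highest bin was 24.6 in blocks with no MTF2 read and 31.4 in blocks with MTF2 above 2 to 3-fold. Read the other way, summed MTF2 was 1.08-fold (1.05 to 1.12) in the 687 blocks with JARID2 at 20 to 25-fold, 1.43-fold (1.38 to 1.47) at 30 to 40-fold and 1.96-fold (1.82 to 2.11) in the 60 blocks at 60-fold or more. The plot of JARID2 against MTF2 fold shows the same spread block by block.

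The blocks with the highest JARID2 fold and no MTF2 read at all were 1 kb wide. They lay on chromosome 16 from 11337001 to 11338000 (276 JARID2 reads, 76.2-fold, 67.4 to 85.7), on chromosome 15 from 82087001 to 82088000 (292 reads, 70.7-fold, 62.9 to 79.3) and on chromosome 5 from 120363001 to 120364000 (274 reads, 62.4-fold, 55.2 to 70.2). A count of 0 allows an MTF2 level of up to 1.09, 1.12 and 1.09-fold there, so these blocks were not shown to lie below the expected MTF2 level. They differed in shape. On chromosomes 15 and 5 the central 80% of JARID2 reads spanned only 225 and 203 bp, while on chromosome 16 they spanned 540 bp. Deposited JARID2 reads per kept read were 1.76 and 1.82 on chromosomes 15 and 5 and 1.26 on chromosome 16, against a class median of 1.15. The median forward and reverse JARID2 5' ends lay 208.5 and 207.5 bp apart on chromosomes 15 and 5. On chromosome 16 they lay only 58 bp apart.

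Narrow blocks of weaker JARID2 signal had less MTF2 than the strong blocks. In the 5899 narrow blocks with JARID2 at 10 to 20-fold and MTF2 under 5-fold, summed MTF2 was 0.644-fold (0.635 to 0.654). In the 14033 blocks at 5 to 10-fold it was 0.643-fold (0.636 to 0.649). No MTF2 read was found in 18.5% (17.6 to 19.6) and 17.2% (16.6 to 17.9) of them, against 5.32% of all covered bins. The strong blocks were thus the only class of the 3 with summed MTF2 above the expected level, under a limit on MTF2 that all 3 shared. Block widths differ between the classes, with 61.1% and 85.1% of the weaker classes at 1 kb, and of the 1 kb strong blocks 13.1% had no MTF2 read.

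Within the strong blocks, MTF2 was raised on both sides of the JARID2 summit and not at the summit. The summit was the median JARID2 read of the 200 bp window with the most JARID2 reads. Around it, JARID2 rose from 1.96-fold (1.89 to 2.04) in the 200 bp step from 2000 to 1800 bp upstream to 51.9-fold and 53.8-fold in the steps that adjoin the summit. MTF2 rose from 1.02-fold (0.969 to 1.08) to 1.64-fold (1.57 to 1.71) between 600 and 400 bp upstream. It then fell to 0.997-fold (0.942 to 1.05) and 0.954-fold (0.90 to 1.01) in the steps next to the summit. Downstream it was back at 1.52-fold (1.45 to 1.59) between 400 and 600 bp and declined to 1.10-fold (1.05 to 1.16) near 2000 bp. Upstream and downstream are in coordinate order.

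**Figure D2:**
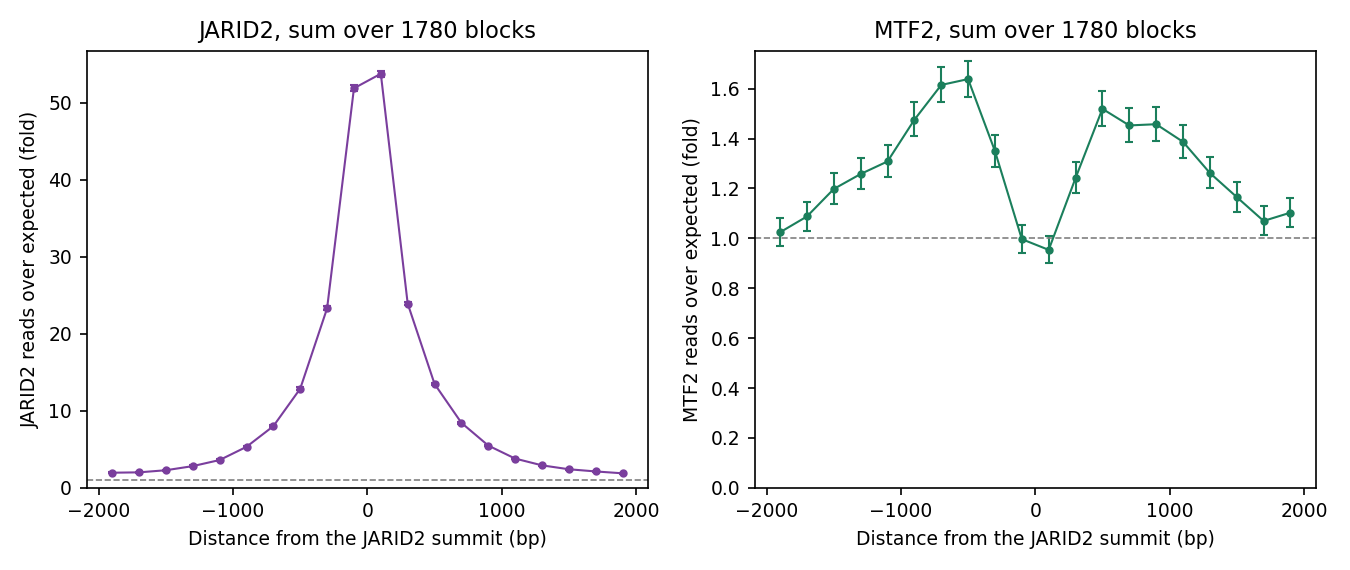
Kept reads over expected reads (fold) in 200 bp steps around the JARID2 summit, summed over the 1780 narrow strong blocks, for JARID2 (left) and MTF2 (right); bars are 95% Poisson intervals and the dashed line is the expected level. JARID2 peaks at 53.8-fold, while MTF2 has shoulders of 1.64 and 1.52-fold and a dip to 0.954-fold.

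The dip was measured as MTF2 reads per bp within 100 bp of the summit over those 500 to 700 bp away. There were 1068 MTF2 reads in the centre (0.866-fold, 0.815 to 0.920) and 3951 in the shoulders (1.60-fold, 1.55 to 1.65), a ratio of 0.541 (0.505 to 0.579). No MTF2 read lay within 100 bp of the summit in 1172 blocks (65.8%), a share that single blocks cannot interpret at this depth. The share was higher in the narrow blocks of weaker JARID2 signal, at 82.9% (10 to 20-fold) and 79.1% (5 to 10-fold). In the narrow strong blocks with MTF2 it was 13.5%. The share over all windows of this size was not computed. The dip lay at different places on the strands. Forward MTF2 reads were fewest from 200 to 100 bp before the summit (225 reads, against a median of 385 per 100 bp) and reverse reads from 100 to 200 bp after it (249 against 413). Forward reads mark the left ends of fragments and reverse reads the right ends.

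The summit was set by JARID2 reads, so its JARID2 height is raised by the choice. The limit of 5-fold per bin caps MTF2 over the whole block and so bears on the level of the MTF2 profile. It also bears on the shape, because the summit always lies in the block while the shoulders can lie outside it. The 126 narrow strong blocks that the limit removed had an MTF2 peak as a whole, as given below. The depth of the dip is thus a description within the limit. The MTF2 reads found in the centre carried the deposited score 0 less often (22.4%, 19.9 to 25) than those in the shoulders (33.4%, 32.0 to 34.9) or in the whole library (41.5%), and what the score stands for is not stated in the sources. With only reads of a score above 0 the ratio was 0.630 (0.581 to 0.683). The dip was thus shallower but present among those reads.

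A dip was also present at weaker JARID2 blocks. The ratio of centre to shoulders was 0.444 (0.420 to 0.470) in the narrow blocks with JARID2 at 10 to 20-fold and 0.496 (0.479 to 0.514) in those at 5 to 10-fold. There the shoulders were at 0.850 and 0.845-fold and the centres at 0.377 and 0.420-fold. Both the shoulders and the centre were thus higher in the strong blocks than in the weaker ones. The 126 narrow strong blocks with MTF2 as a whole had an MTF2 peak at the summit, with a ratio of 13.1 (11.9 to 14.4). They were divided, after the data were seen, by the distance between forward and reverse JARID2 reads and by repeat reads. The 53 with a distance of 72 bp or more and fewer than 1.5 deposited reads per kept read had a dip, with a ratio of 0.504 (0.396 to 0.637), shoulders at 4.94-fold and a centre at 2.49-fold. The remaining 73 had a peak, with a ratio of 40.1 (34.3 to 47.1).

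**Figure D3:**
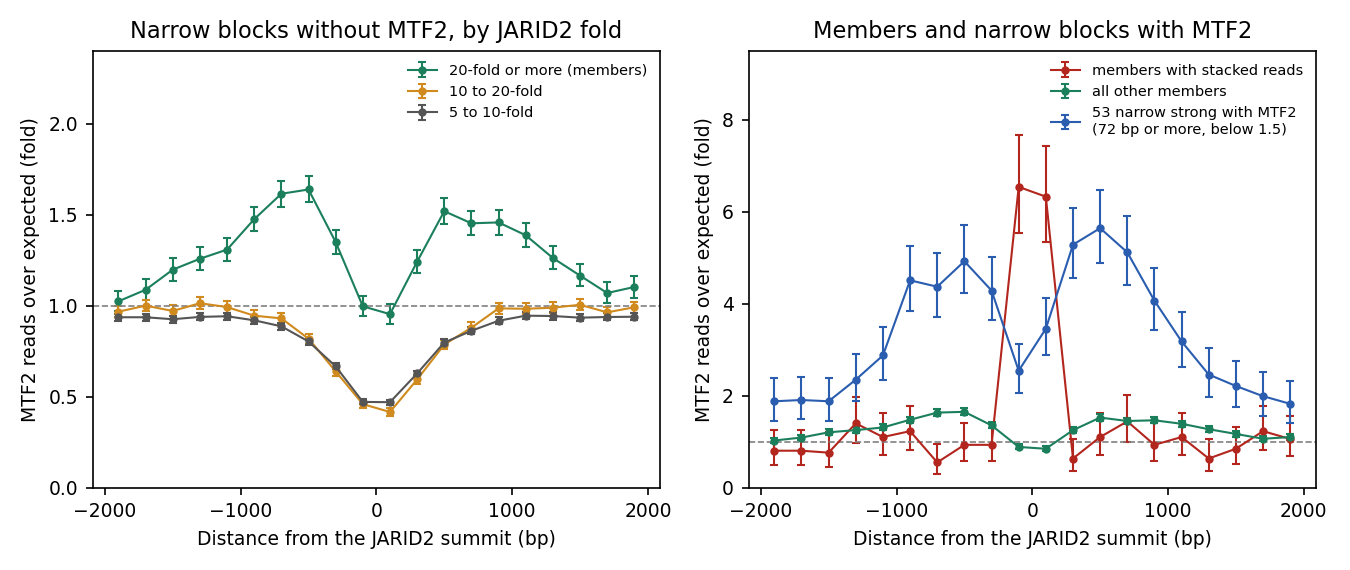
MTF2 reads over expected reads (fold) in 200 bp steps around the JARID2 summit, with 95% Poisson intervals: at left the narrow blocks without MTF2 by JARID2 fold, at right the 34 members with stacked reads, all 1746 other members, and the 53 narrow strong blocks with MTF2 that have a strand distance of 72 bp or more and fewer than 1.5 deposited reads per kept read. Of the classes drawn, the stacked members peak at the summit, at 6.54-fold, and the others dip; the remaining 73 narrow strong blocks with MTF2, which peak at 49.7-fold, are not drawn.

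JARID2 reads in most blocks had the strand pattern of sheared fragments around a point. In such a pattern forward reads pile up before the point and reverse reads after it, at a distance near the fragment length. The distance between the median forward and the median reverse 5' end had a median of 192 bp (quartiles 151 and 228 bp). Forward reads made up 50.2% of JARID2 reads near the summits. The pooled JARID2 profile was 299 bp wide at 50% of its height, and the central 80% of the reads of a block spanned a median of 794 bp. Pooled JARID2 reads per 100 bp were highest from 100 bp before the summit to the summit on the forward strand (26347 reads) and from 100 to 200 bp after it on the reverse strand (26182 reads). The summit was set from JARID2 reads moved 100 bp downstream. These 2 positions therefore follow in part from its choice and are no evidence for the strand pattern.

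In 34 blocks the reads were stacked instead. These are the blocks with a strand distance below 72 bp (2 JARID2 read lengths) and at least 3 deposited reads per kept read, a definition made after the data were seen. Their strand distance had a median of 34.5 bp (23.5 to 64.0), close to the read length of 36 bp. The central 80% of their reads spanned a median of 200 bp, against 799 bp in all other blocks. Of 50 neighbouring forward start positions, a median of 44 were used in the densest window, against 11 in all other blocks. The limit of 1 kept read per position and strand thus bounds their JARID2 count, which had a median of 101 reads (74 to 322) at a median of 26.0-fold.

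**Figure D4:**
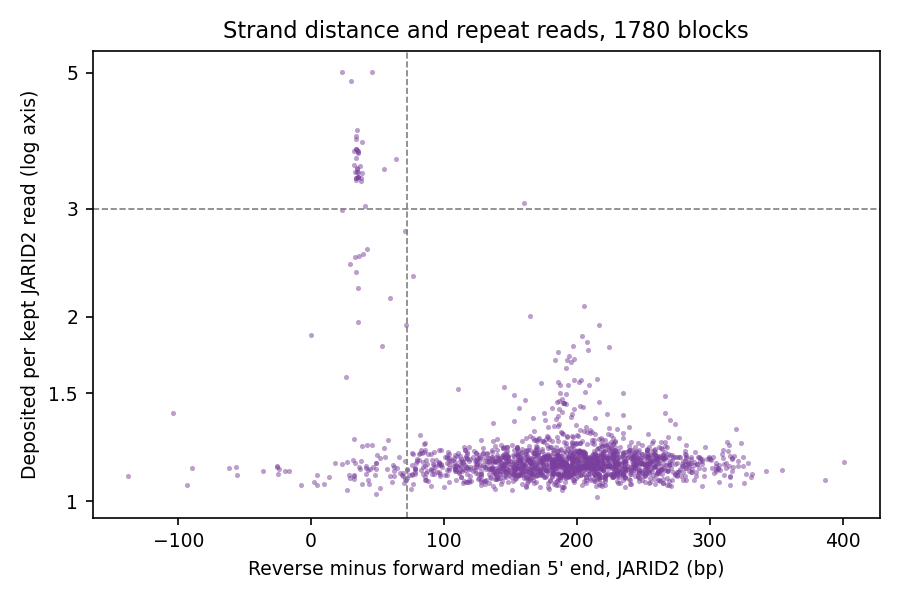
Distance from the median forward to the median reverse JARID2 5' end (bp) against deposited reads per kept read (log axis), 1 point per narrow strong block, with dashed lines at 72 bp and at 3. Most blocks lie near 192 bp and 1.15, and 34 blocks lie at upper left, with 15 blocks below 72 bp at 1.60 to 2.98 leading up to them.

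Summed over the stacked blocks, MTF2 peaked at the summit. They had 174 MTF2 reads within 100 bp of the summit and 47 in the shoulders, a ratio of 7.40 (5.34 to 10.4), and summed MTF2 over the block was 3.02-fold (2.72 to 3.34). In all 1746 other blocks the ratio was 0.458 (0.425 to 0.493) and summed MTF2 1.33-fold (1.31 to 1.35). The stacked blocks were 1.91% of the class and held 174 of its 1068 central MTF2 reads. The most repeated blocks were on chromosome 16 from 91423001 to 91424000, with 496 deposited and 99 kept JARID2 reads, and on chromosome 17 from 35839001 to 35840000, with 1611 and 322. The next was on chromosome 9 from 110126001 to 110127000, with 553 and 114. Their strand distances were 23.5, 45.5 and 30 bp, and they had 1, 0 and 2 MTF2 reads within 100 bp of the summit, so the peak was not seen at each of them. Over the 34 stacked blocks the central MTF2 count had a median of 4.5 reads (0 to 14), and 33 had at least 1, while in all other blocks the median was 0 and the highest count 10.

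A short strand distance alone did not mark such blocks. Of 124 blocks below 72 bp, 75 had fewer than 1.5 deposited reads per kept read, a wide span of 1006 bp at the median and the usual MTF2 dip (0.473, 0.317 to 0.688). Between these groups, the 15 blocks with 1.5 to under 3 deposited reads per kept read had an MTF2 ratio of 4.07 (2.55 to 6.65). The strong block on chromosome 11 from 64251001 belonged to the 75, with a strand distance of 32.5 bp and a span of 1225 bp. A single block with 3 or more deposited reads per kept read lay outside the stacked group. Repeat reads were more frequent among the narrow strong blocks with MTF2, where 28 of 126 (22.2%) had 3 or more deposited JARID2 reads per kept read at any strand distance, against 35 of 1780 (1.97%) here. Summed over the 1780 blocks there were 1.22 deposited JARID2 reads per kept read, against 1.12 in the whole library, and the median block had 1.15 (quartiles 1.12 and 1.19).

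Most of the narrow strong blocks had no other JARID2 block within 10 kb, but the share that had one was above the share for all covered bins. The nearest other JARID2 block was a median of 23 kb away (quartiles 7 and 62.2 kb). Another JARID2 block lay within 10 kb of 532 blocks (29.9%, 27.8 to 32.1), against 30.2% (29.0 to 31.4) for narrow blocks at 10 to 20-fold and 33.6% (32.8 to 34.4) for those at 5 to 10-fold. For comparison, 18.6% of all covered bins had another JARID2 bin of 5-fold or more that near, although merging removes such bins from around blocks. JARID2 in the flanks 2 to 10 kb away was 1.97-fold (1.96 to 1.98), against 1.80 and 1.84-fold for the weaker classes.

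An MTF2 bin of 5-fold or more lay within 10 kb of 37 blocks (2.08%, 1.47 to 2.85), against 1.23% of all covered bins. The share was 1.34% (1.06 to 1.67) and 1.67% (1.46 to 1.89) for the weaker narrow classes and 11.1% (6.21 to 17.9), 14 of 126, for the narrow strong blocks with MTF2. The interval of the last does not overlap those of the others, while the strong blocks without MTF2 overlap both weaker classes. MTF2 outside the block was not used in the choice of blocks.

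Some narrow strong blocks lay close to another one. Of 1761 neighbouring pairs on a chromosome, 30 were less than 10 kb apart and 284 less than 100 kb, with a median distance of 605 kb. The numbers that random placement would give were not computed, so these counts do not show whether the blocks cluster. The 3 closest pairs were 2 kb apart. On chromosome 2, the block from 118664001 to 118665000 had 86 JARID2 and 2 MTF2 reads, and its neighbour from 118667001 to 118669000 had 237 and 21. On chromosome 5, the block from 73926001 to 73928000 had 121 JARID2 and 6 MTF2 reads, and that from 73930001 to 73932000 had 208 and 27. On chromosome 12, the block from 85479001 to 85481000 had 204 JARID2 and 6 MTF2 reads, and that from 85483001 to 85484000 had 77 and 2. In the chromosome 5 pair MTF2 was 0.886-fold (0.325 to 1.93) in the first block and 3.99-fold (2.63 to 5.80) in the second. In the chromosome 2 and chromosome 12 pairs the MTF2 intervals of the neighbours overlapped. MTF2 in the blocks was used to choose them, so these values are a description.

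The blocks were spread over all 19 chromosomes. Their density ran from 0.603 per 1000 covered bins on chromosome 13 (70 blocks, 0.470 to 0.762) to 0.948 on chromosome 19 (55 blocks, 0.715 to 1.23), with a median of 0.748. Those extreme intervals overlap only narrowly, and neighbours in the order did not differ beyond counting error. Summed MTF2 in the blocks lay above the expected level on every chromosome, from 1.12-fold on chromosome 12 to 1.55-fold on chromosome 10. Across the 19 chromosomes, the density of blocks and the number of protein-coding genes per 1000 covered bins had a Pearson r of 0.412 and a Spearman rho of 0.279. Without the 2 chromosomes farthest from the median gene density r was 0.521. The same relation was not computed for all JARID2 blocks, so it is not shown to be particular to this class. Gene numbers per chromosome are from RefSeq (GRCm38.p6), chromosomes are not replicates, and all points share the same libraries.

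**Figure D5:**
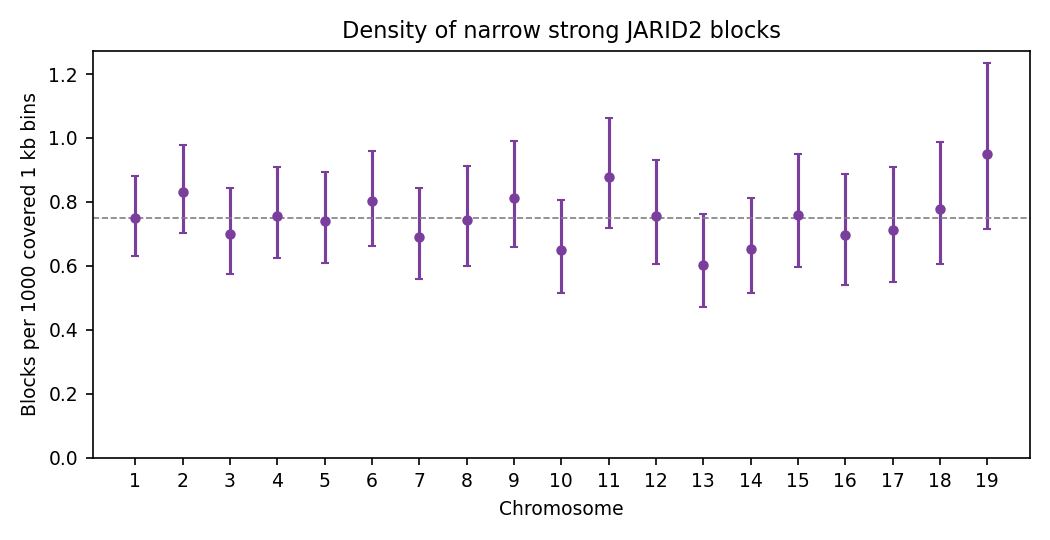
Narrow strong blocks per 1000 covered 1 kb bins on each of chromosomes 1 to 19, with 95% Poisson intervals and a dashed line at the median of 0.748. Values run from 0.603 on chromosome 13 to 0.948 on chromosome 19, and the intervals of these extremes overlap only narrowly.

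The number of blocks depends on what a strong signal is measured against. With the larger of the chromosome's expected count and the mean of the 10 kb on either side as the background, 832 blocks met the rule in place of 1780, and with a limit of 25-fold 1093 did.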

How the data were processed

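Per the labels' protocols, libraries had 15 cycles of PCR and were read on an Illumina Genome Analyzer. The deposited files list aligned reads, 1 per line; aligner, build and filters are not stated. Each line of the deposited MTF2 file has a score of unstated meaning, used here to describe reads and in 1 alternative. The deposited JARID2 score is constant.

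Of reads that share a strand and a 5' position, 1 was kept, and it was moved 70 bp (MTF2) or 100 bp (JARID2) downstream. This kept 81.0% of MTF2 and 89.0% of JARID2 reads. A chromosome's expected count is the mean of its bins that hold a read of either library, up to the 99th percentile. Intervals are exact: Poisson for folds, Clopper-Pearson for shares, and conditional binomial for ratios. PCR copies are not independent molecules. The code was tested on simulated reads. Named regions are the strongest block per chromosome, the 3 nearest each limit on either side, the 3 strongest with no MTF2 read, the 3 closest pairs and the 3 with most repeat reads. The blocks and comparisons were chosen with earlier results of these data known, and the strand distance limit, the stacked group and the centre and shoulder windows after their values were seen. Alternatives changed bins, limits, merging, repeat reads, shifts and background. Python 3.11.15, numpy 2.4.6, pandas 2.3.3 and scipy 1.17.1 were used. The planned gene lists and promoter positions need an annotation of the files' build and were not analysed here.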

Additional observations from a re-analysis of the deposited data

Results flagged for a closer look

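Chromosome X, which the rule leaves out, held 94 blocks that otherwise met it and lie outside the comparisons above. Its expected count was 2.10 JARID2 and 2.24 MTF2 reads per bin, so 20-fold was reached there with 42.0 reads. Summed MTF2 over these blocks was 0.972-fold, the density was 0.606 per 1000 covered bins, and 1 block had 3 or more deposited JARID2 reads per kept read.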

How the results depend on the processing

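Over 10 results, 57 alternative values were computed: 30 stayed within the counting interval (for counts of blocks, within 1.5 times; for the width, within 20 bp), 27 moved and 0 reversed. The cause was not tested except where a setting removes blocks or reads. The ratio at the summit and all its alternatives were added after the data were seen, as was the exclusion of blocks with a strand distance below 72 bp.

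The number of blocks was 1093 with a 25-fold limit and 832 with local background. Summed MTF2 was 1.09-fold with an MTF2 limit of 3-fold, 1.53 with scores above 0, 1.31 with all deposited reads and 1.46 with local background. The share without an MTF2 read was 6.35% with bins moved by 500 bp and 7.98% with scores above 0. The JARID2 profile was 232 bp wide with all deposited reads. A JARID2 block lay within 10 kb of 27.2% at 25-fold, 35.5% with no gap merged, 26.3% with gaps of 2 kb merged and 16.1% with 10-fold blocks as neighbours. An MTF2 bin lay within 10 kb of 2.91% with scores above 0 and 17.9% when 3-fold bins counted. Deposited JARID2 reads per kept read, 1.22 over the class, were 1.218 with moved bins, 1.23 at 25-fold and 1.21 with an MTF2 limit of 3-fold. The MTF2 ratio of blocks to flanks was 1.51 with scores above 0 and 1.36 with all reads. The median density was 0.461 at 25-fold.

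The MTF2 ratio of centre to shoulders was 0.461 with an MTF2 limit of 3-fold, 0.630 with scores above 0, 0.685 with all deposited reads and 0.688 with no shift. It was 0.458 without blocks of 3 or more deposited reads per kept read and 0.430 without those of short strand distance. No paired analysis was possible because each group is a single library. With about 3 MTF2 reads expected per bin, depth limits statements on MTF2 in single blocks.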
